A study of Mus musculus with 24 samples.

Results

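The RUNX and ETO families are 2 groups of nuclear proteins that meet on the same DNA in blood cells. They were examined in RNA-seq of LSK-SLAM cells of young and old mice, which are bone marrow cells sorted to enrich haematopoietic stem cells (HSCs). The genes were chosen by name, with earlier old against young results of these data in view, and *Runx1t1* had been singled out before as a gene higher in old cells. Of the 7 genes named, 6 had values among the 18762 genes of the table, namely *Runx1t1*, *Cbfa2t2*, *Cbfa2t3*, *Runx2*, *Runx3* and *Cbfb*, and the seventh was not analysed here. All 6 passed the minimum mean of 10 normalized read counts and entered the tests. The 5 young mice were labelled 4 to 5 months old and the 7 old mice 20 to 22 months, and all 12 were Wt mice of the C57BL/6 strain. The text of the study gives other, higher ages for both groups, and the ages of the labels are used here. The sort used surface proteins, and the RNA of many cells was measured together, so that fewer cells of a type and less RNA per cell cannot be told apart.

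RUNX proteins are the DNA-binding subunits of core binding factor. *Cbfb* encodes the non-DNA-binding subunit that all RUNX proteins share, which strengthens their grip on DNA and shields them from breakdown. The ETO proteins, named after the chromosome translocation of a leukaemia in which the founding gene was found, bind no specific DNA sequence themselves but bring histone deacetylases and the NCOR corepressors to transcription factors that do. Core binding factor is required for blood stem cells to form in the embryo, and an ETO protein works with TAL1 and LMO2 in stem cells and in precursors of red cells and platelets.

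RUNX proteins bind the core letters TGTGGT, which read ACCACA on the other strand. Among the 7 RefSeq promoters (GRCm38.p6) of 5 of the 6 genes, only *Runx2* and *Runx3* had this core within 250 bases before and 50 bases after the gene start. In both genes it was present as a tandem, ACCACA followed after 2 bases by ACCACA, on the strand of the gene. The windows are shown because the same arrangement stands at the start of both RUNX genes, with the cores in capitals. The *Runx3* window lies at chr4:135120503-135120532 on the plus strand, its tandem beginning at position -134 from the gene start, and the *Runx2* window at chr17:44814583-44814612 on the minus strand, its tandem beginning at position 23 after the start.
*Runx3*: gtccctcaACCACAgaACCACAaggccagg
*Runx2*: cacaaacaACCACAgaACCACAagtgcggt
The 2 bases between the cores were the same in both genes. Over all 32851 promoters of this length, 16.8% held the core on either strand, and 7 promoters (0.0213%) held the tandem. A match of letters is a description of the promoter and does not show that a protein was bound there. The other promoter of *Runx3* and those of *Cbfa2t2*, *Cbfa2t3* and *Cbfb* did not contain these letters.

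The values were normalized read counts, that is reads per gene scaled by library size and a factor per library, per M library reads, where M stands for 1000000. The reads behind them came to 2.05 to 5.12 M per young mouse and 0.861 to 5.00 M per old mouse. Every mouse label ended in A or B, a letter whose meaning the labels do not give. Of the young mice 2 had letter A and 3 letter B, and of the old mice 4 had letter A and 3 letter B. The 6 mice with letter A had between 0.861 and 3.11 M reads and the 6 with letter B between 3.23 and 5.12 M, so that letter and depth cannot be told apart. Old mice 5 and 7, both of letter A, had the fewest reads (1.13 and 0.861 M). The summed level of 12 stem cell markers was between 3351 and 5349 normalized read counts in young and between 1812 and 6000 in old mice, and none of these markers was at 0 in any mouse.

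Per kilobase of exon, the 3 higher genes kept their order in every mouse and the 3 lower genes did not. *Cbfb* was highest at 57.7 ± 15.5 normalized read counts per kb (SD, n = 12 mice), above 96.9% of the genes tested with a known length. *Cbfa2t3* followed at 37.5 ± 12.4 and *Runx2* at 18.7 ± 4.17 per kb. *Cbfb* exceeded *Cbfa2t3*, and *Cbfa2t3* exceeded *Runx2*, in 12 of 12 mice. *Runx2*, best known as the master regulator of bone formation, thus had the higher level of the 2 RUNX genes measured, and 6 of the 9 stromal and bone markers with values entered the tests. Those markers summed to between 117 and 350 normalized read counts in young and between 76.0 and 386 in old mice, with *Bglap* and *Ibsp*, osteoblast genes, at 0 in at least 1 mouse, and their part in the level of *Runx2* was not tested.
The 3 lower genes lay close together. *Cbfa2t2* had 10.99 ± 1.26, *Runx1t1* 9.54 ± 2.79 and *Runx3* 8.65 ± 1.76 normalized read counts per kb (SD, n = 12). Neighbours in this order overlapped over all mice: *Cbfa2t2* exceeded *Runx1t1* in 8 of 12 mice and *Runx1t1* exceeded *Runx3* in 7 of 12. Their order turned with age. *Runx1t1* was below *Runx3* in all 5 young mice and above it in all 7 old mice, and this held for lengths taken from all exons and from the longest transcript. *Cbfa2t2* was above *Runx1t1* in 5 of 5 young but in 3 of 7 old mice (4 of 7 by the longest transcript). Both turns use the values of a gene picked for being higher in old mice, so they are a description and give no independent support. How many other pairs of genes turn in this way was not counted.

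**Figure D1:**
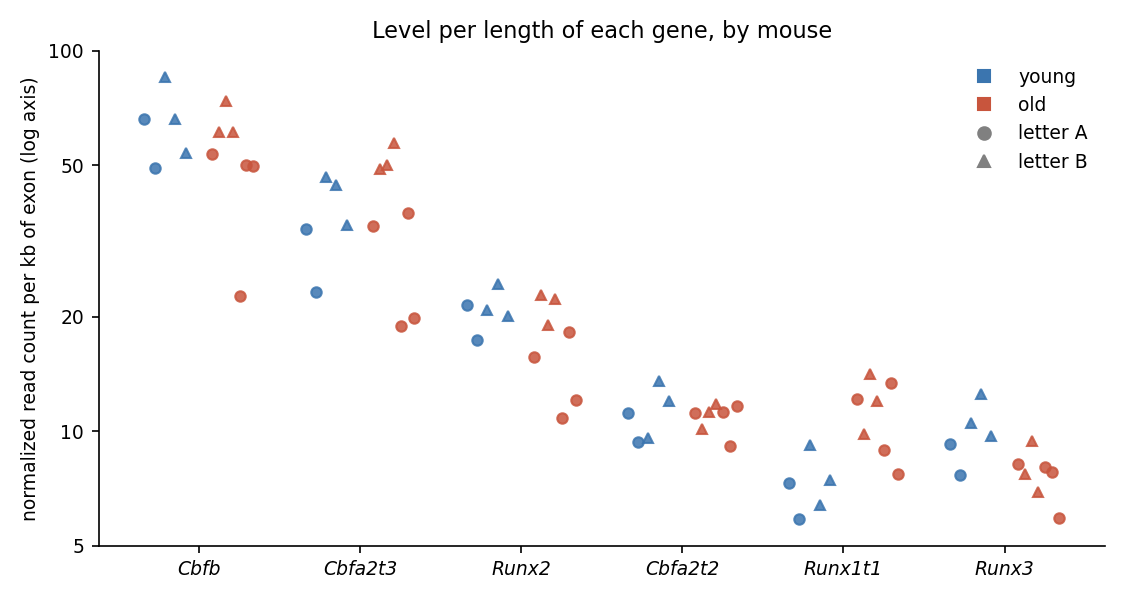
Normalized read count per kb of exon (log axis) for each gene, with 1 point per mouse, young in blue and old in red, letter A as circles and letter B as triangles. *Cbfb* and *Cbfa2t3* lie highest. The points of *Runx1t1* and *Runx3* overlap in both ages and are not joined by mouse. Compared within each mouse, *Runx1t1*, picked for being higher in old mice, was below *Runx3* in the young and above it in the old.

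*Runx1t1* encodes ETO itself, the founding member of the corepressor family. The gene spans chr4:13743436-13893649 on the plus strand (mm10), overlaps no other gene and shares none of its 50-base words with another gene. In the young mice its values, in order of replicate number, were 58.2, 46.6, 73.2, 50.8 and 59.3 normalized read counts. In the old mice they were 61.5 at the lowest, 95.7 at the median and 113 at the highest. Of the old mice 5 lay above every young mouse, and old mice 5 (71.0) and 7 (61.5) lay inside the young range, below young mouse 3. The means were 57.6 ± 10.2 (SD, n = 5) and 89.0 ± 19.0 (SD, n = 7), a ratio of 1.54. On the log2(value + 1) scale the difference was 0.60 (standard error 0.19, 95% interval 0.20 to 1.01).
It was not called in the fit over all genes (limma with Benjamini-Hochberg adjustment, adjusted p = 0.709), in which 13 of 12354 genes (0.105%) were called. Since the gene was picked for this difference, the value is given as a description. With the letter as a covariate the difference was 0.64 (standard error 0.19, adjusted p = 0.285), beside 0.299% of all genes called. Neither limma fit called any of the 6 genes (0 of 6). On recovered reads edgeR and DESeq2 called 0 of 6 as well, beside 18 and 57 of all 12354 genes. With limma 1 of the 6, *Runx1t1*, had an unadjusted p under 0.05 without a covariate, beside 3.95% of all genes.

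The letters split the overlap of *Runx1t1*. With letter A the young mice had 46.6 and 58.2 and the old mice 61.5 to 107 normalized read counts. With letter B the young mice had 50.8 to 73.2 and the old mice 78.4 to 113. Within each letter all old mice were therefore above all young mice, which 78 of the 12354 genes (0.631%) showed in this direction. Since *Runx1t1* was picked for being higher in these same old mice, the separation is a description and gives no independent support. The log2 difference was 0.64 in the mice with letter A and 0.64 in those with letter B. The test of whether it differed between the letters gave a difference of -0.01 (95% interval -0.82 to 0.81, limma adjusted p = 0.9998), with 2 genes (0.0162%) called for such a difference.
The 2 old mice inside the young range were also the 2 libraries with the fewest reads of all. Old mouse 7 had 50 *Runx1t1* reads, for which counting error alone (exact Poisson) gave a 95% interval of 45.6 to 81.1 normalized read counts, and old mouse 5 had 90 reads and an interval of 57.1 to 87.3. These were the fewest *Runx1t1* reads of any mouse. Young mouse 2 came next with 97 reads and an interval of 37.8 to 56.9, but from a deeper library of 2.05 M reads. Without both old mice the old mean was 98.0 ± 13.03 (SD, n = 5), and the log2 difference was 0.76 (standard error 0.17). This gave an adjusted p of 0.0674 from limma without a covariate, where 0.397% of genes were called, and of 0.0226 with the letter as a covariate, where 0.955% were called. Both fits were added after the data were seen, and since they leave out the 2 lowest old values of a gene picked for being higher in old mice, they favour its call and give no independent support. The latter is the only setting of 29 in which any of the 6 genes was called between the ages.

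**Figure D2:**
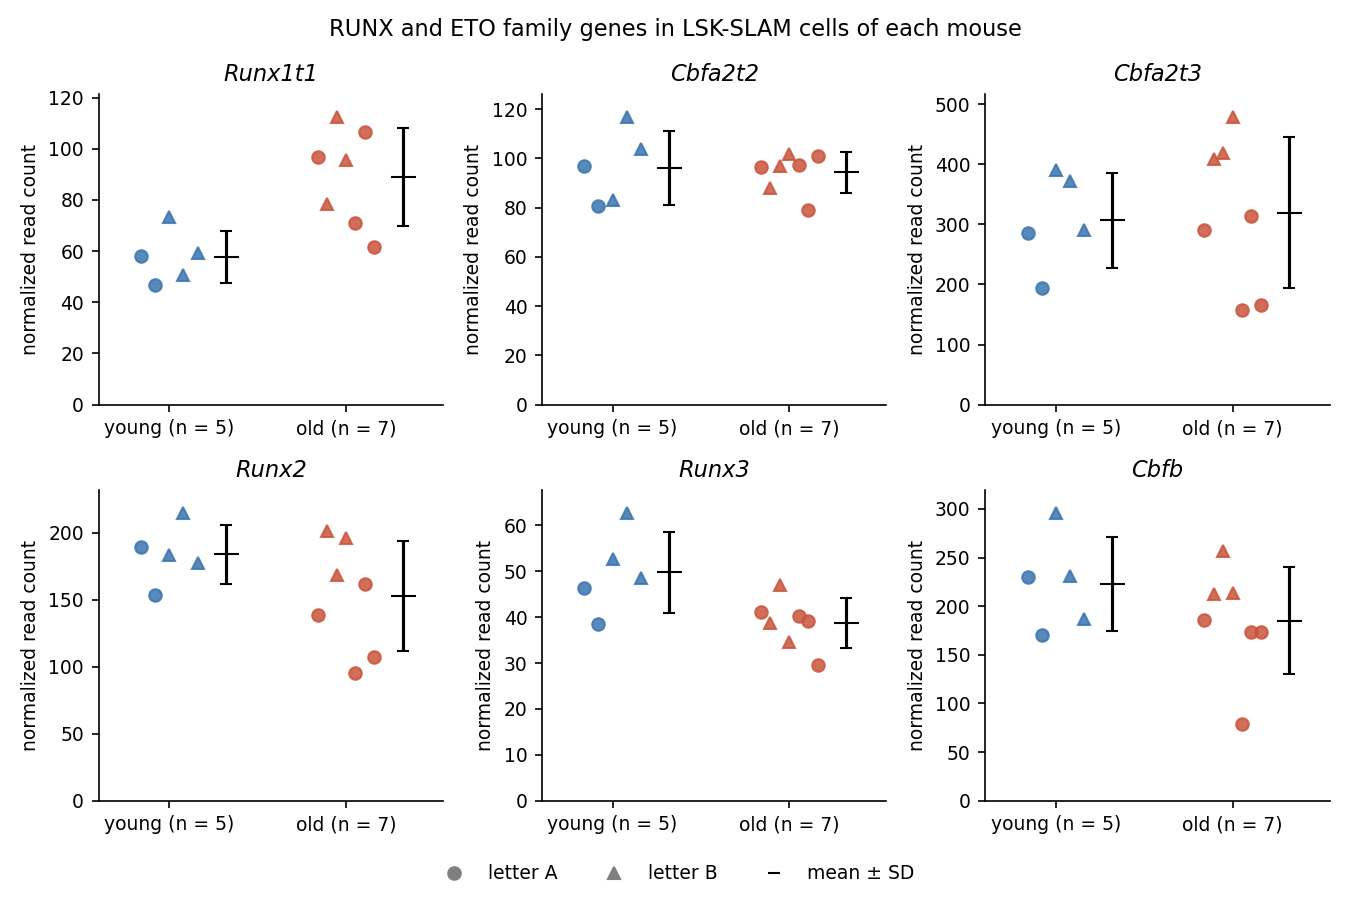
Normalized read counts of the 6 genes in 5 young and 7 old mice, 1 point per mouse, with circles for letter A and triangles for letter B and the mean ± SD beside each group. *Runx1t1* has 5 of 7 old mice above all young mice, while the other panels show wide overlap.

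The remaining ETO genes had smaller estimates, and the differences between the ETO genes were not tested. *Cbfa2t2*, a corepressor also known as MTGR1 that acts in germ cells and the gut, lies at chr2:154436481-154539356 on the plus strand. It had 96.2 ± 15.0 normalized read counts in young (SD, n = 5) and 94.2 ± 8.16 in old mice (SD, n = 7). Its log2 difference was -0.02 (95% interval -0.35 to 0.31), an interval that overlaps the 0.20 to 1.01 of *Runx1t1*. The spread was small in both ages, with values between 80.8 and 117 in young and between 78.8 and 102 in old mice. A processed copy, *Cbfa2t2-ps1*, held most of the 7.20% of its 50-base words found elsewhere, so that some of its reads are uncertain.
*Cbfa2t3* encodes ETO2 (MTG16), the member that joins the TAL1 complex and restrains differentiation of stem and erythroid cells, from chr8:122625141-122699109 on the minus strand. Its young mice, by replicate number, had 285, 194, 391, 371 and 291 normalized read counts. The old mice had 158 at the lowest, 314 at the median and 479 at the highest, so that old mice lay both above and below all the young. Old mice 5 and 7 had the lowest values of all, 158 and 166. The log2 difference between the ages was -0.01 (95% interval -0.62 to 0.60), changed to 0.13 with the letter as a covariate and to 0.33 without old mice 5 and 7 (95% interval 0.04 to 0.63 with the letter as a covariate), and was not called in any of these fits (limma adjusted p between 0.427 and 0.9997). Within letter B all 3 old mice (409 to 479) were above all 3 young mice (291 to 391), as in 6.72% of all genes, with a log2 difference of 0.32. Within letter A the ages overlapped and the difference was -0.09.

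The reads of the 3 ETO genes can also be read as shares of their sum, which cancels the scaling of a library. *Cbfa2t3* supplied the largest share in every mouse, with a mean of 65.9% in young and 61.5% in old mice. *Runx1t1* made up 12.7% ± 1.92 in young (SD, n = 5) and 18.2% ± 3.26 in old mice (SD, n = 7). Its lowest young share was 9.43% (young mouse 4, 259 of 2747 reads, Wilson 95% interval 8.39 to 10.6%) and its highest old share 21.8% (old mouse 5, 90 of 413 reads, 18.1 to 26.0%).
Here too the letter mattered. With letter A the share was 13.2 and 14.5% in young and 18.7 to 21.8% in old mice, and with letter B it was 9.43 to 13.4% and 13.6 to 17.9%. The ages did not overlap within either letter, although across letters the highest young share, 14.5%, exceeded the 13.6% and 14.1% of old mice 2 and 4. The shares use the same reads of a gene picked for being higher in old mice, so they are a description and give no independent support. Old mice 5 and 7, which were low in *Runx1t1* by level, had 21.8% and 18.7% by share. In the same mice *Cbfa2t3*, then at its lowest levels of all mice, supplied 48.4% and 50.6% of the reads. A lower *Cbfa2t3* by itself raises the share of *Runx1t1*.

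**Figure D3:**
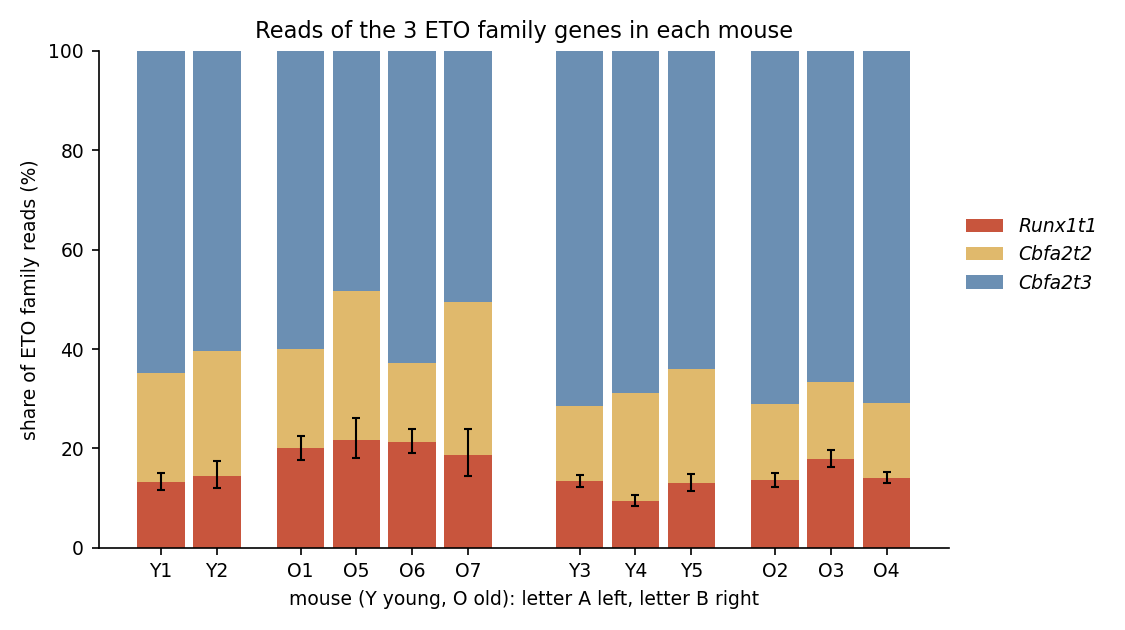
Share of the reads of the 3 ETO family genes in percent, 1 bar per mouse, with letter A on the left, letter B on the right and young before old within each letter; the error bars are Wilson 95% intervals of the *Runx1t1* share and cover counting error only. Within each letter the *Runx1t1* share of every old mouse lies above that of every young mouse. The gene was picked for being higher in old mice.

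The RUNX genes and their partner were not called between the ages, and all 3 estimates were below 0. *Runx3*, which acts in T cell and myeloid differentiation and lies at chr4:135120652-135177990 on the plus strand, had 46.3, 38.5, 52.6, 62.8 and 48.5 normalized read counts in the young mice by replicate number. In old mice it was 29.5 at the lowest, 39.2 at the median and 47.0 at the highest. The means were 49.7 ± 8.93 (SD, n = 5) and 38.6 ± 5.46 (SD, n = 7), a log2 difference of -0.35 (95% interval -0.76 to 0.05, limma adjusted p = 0.9997). The young and old values overlapped, but within letter B the 3 old mice (34.6 to 47.0) were below the 3 young mice (48.5 to 62.8), as in 6.18% of all genes, with a log2 difference of -0.44. Within letter A the ages overlapped and the difference was -0.18. Its fewest reads were 24, in old mouse 7.
*Runx2* lies at chr17:44495987-44814797 on the minus strand. It had 184 ± 22.0 normalized read counts in young (SD, n = 5) and 153 ± 41.1 in old mice (SD, n = 7), a log2 difference of -0.31 (95% interval -0.74 to 0.12). Old mice 5 and 7 were lowest with 95.5 and 107. Without these 2 mice and with the letter as a covariate the difference was -0.09 (95% interval -0.38 to 0.19), and it was -0.47 within letter A, which holds both, and -0.03 within letter B. Opposite-strand gene *Runx2os1* holds most of the 5.66% of *Runx2* words found elsewhere, and whether the counting used strand is not given in the sources used here.
*Cbfb*, at chr8:105170674-105217989 on the plus strand, had 223 ± 48.8 normalized read counts in young (SD, n = 5) and 185 ± 55.0 in old mice (SD, n = 7), a log2 difference of -0.32 (95% interval -0.84 to 0.21). Old mouse 5 was lowest at 78.9, and in the fit without the 2 shallowest mice and with the letter as a covariate the difference was -0.08 (95% interval -0.38 to 0.22). It was -0.45 for letter A and -0.05 for letter B. The estimates of *Runx2* and *Cbfb* thus shrank toward 0 when old mice 5 and 7 were left out, whereas that of *Runx3* was -0.29 (95% interval -0.71 to 0.13).
*Runx3* supplied 21.2% ± 1.32 of the summed *Runx2* and *Runx3* reads in young (SD, n = 5) and 21.0% ± 4.86 in old mice (SD, n = 7), and ranged in the latter from 15.0% to 29.7%. The means hid opposite directions by letter, from 19.8% in young to 23.4% in old mice with letter A and from 22.1% to 17.7% with letter B, a difference that was not tested.

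**Figure D4:**
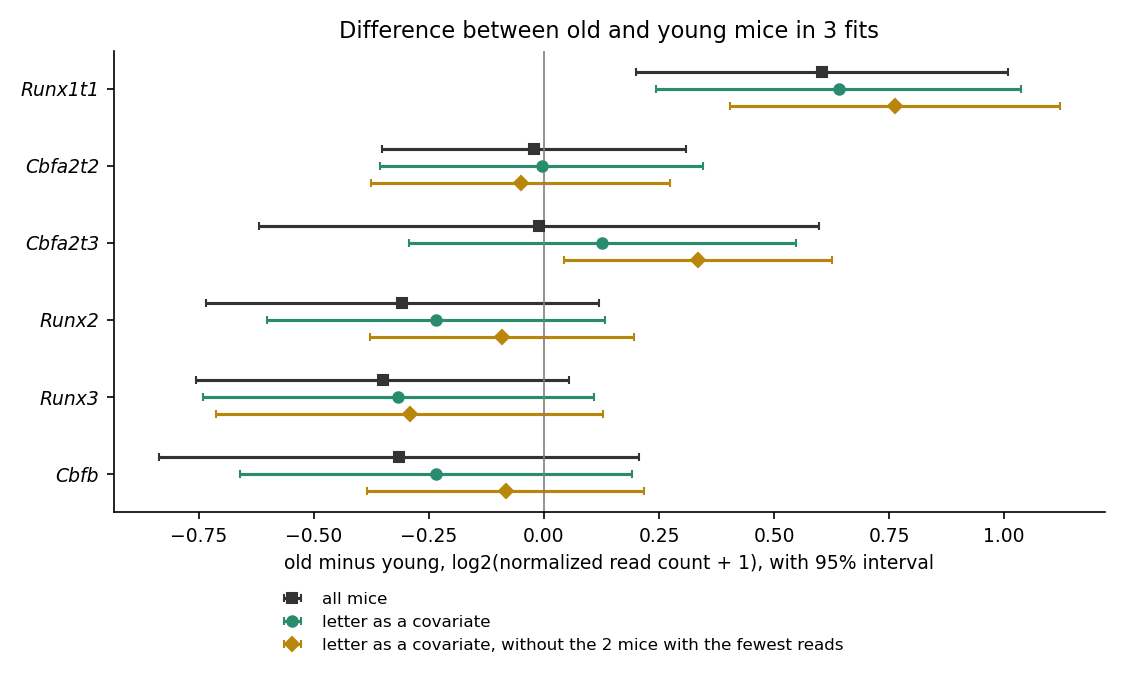
Old minus young difference in log2(normalized read count + 1) with its 95% interval for each gene in 3 fits: all 12 mice, all mice with the letter as a covariate, and the latter without the 2 mice with the fewest reads. *Runx1t1* lies above 0 in all 3, *Runx3* keeps its place below 0 with intervals that include 0, and *Runx2* and *Cbfb* move toward 0 in the last fit.

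Against all genes, 1 of the 6 had an estimate above 0 and 5 below. Their median log2 difference was -0.16, beside -0.02 for all 12354 genes tested. *Runx1t1* was higher than 95.1% of all genes tested in its difference, and *Runx3*, *Cbfb* and *Runx2* were higher than 10.8%, 13.1% and 13.8%. For none of the 6 did young and old values stay apart over all mice, as they did for 57 genes (0.461%).

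The letter contrast had no part in the choice of the genes and was tested. *Cbfa2t3* was higher in mice labelled B by 0.80 on the log2 scale (standard error 0.20, 95% interval 0.39 to 1.22, limma adjusted p = 0.00432), with age in the model. Mice with letter A had between 158 and 314 normalized read counts, those with letter B between 291 and 479. Within the young (194 and 285 against 291 to 391) and within the old (158 to 314 against 409 to 479) every mouse with letter B was above every mouse with letter A. *Cbfa2t3* was the only one of the 6 called (1 of 6), in a contrast in which 4462 genes (36.1%) were called, 1301 of them (10.5%) higher in B.
Because the letters differ in so many genes, the scale matters. The median difference of all genes was -0.09 as deposited and 0.21 after rescaling by median ratios, a shift of 0.29, and genes with a mean of at least 50 had a median of 0.30. The balance of the calls turned with it. As deposited 10.5% of genes were higher and 25.6% lower in B, after rescaling 27.2% and 20.5%, and among genes with a mean of at least 50 as deposited 17.3% and 2.35%. Relative to the median of all genes *Cbfa2t3* was higher by 0.89 as deposited and by 0.90 after rescaling, and relative to genes with a mean of at least 50 by 0.50. It was called in all 18 alternative settings, among them libraries thinned to the fewest reads of any mouse (0.80, limma adjusted p = 0.00571) and the fit without old mice 5 and 7 (0.54, limma adjusted p = 0.0136, 18.5% of genes called).
*Cbfb* (0.47, 95% interval 0.05 to 0.89, limma adjusted p = 0.0699) and *Runx2* (0.43, 95% interval 0.06 to 0.79, limma adjusted p = 0.0591) had estimates above 0 that did not pass, but both passed after rescaling by median ratios (limma adjusted p = 0.0129 and 0.0103), where 47.7% of genes were called. *Runx1t1* (0.21), *Runx3* (0.20) and *Cbfa2t2* (0.10) did not pass in any setting. The gene *Gm10800*, which took the most reads in every mouse, held 7.18 to 18.6% of the reads with letter A and 1.60 to 8.44% with letter B, and its part in these differences was not tested. Markers of other cell types moved with the letter in both directions. Lower in B were 7 of 9 lymphoid markers tested, 5 of 6 stromal and bone markers and 4 of 7 myeloid markers, beside 25.6% of all genes, and none of these lists had a marker that was higher. After rescaling 5 of 9, 4 of 6 and 4 of 7 were lower, beside 20.5% of all genes. The lymphoid and the stromal and bone markers tested all had a mean below 50. Calls lower in B were rarer among genes with a mean of at least 50 (2.35%). The share of all genes is therefore not the share at the level of these markers, which was not counted. Of the 7 megakaryocyte markers 3 were higher in B (10.5% of all genes) and 0 lower. As deposited 3 of 7 erythroid and 2 of 6 endothelial markers were lower in B and 0 higher. Of the 12 stem cell markers 4 were higher in B and 1 lower. The lymphoid sum was 251 to 414 normalized read counts with letter A and 86.9 to 227 with letter B, with *Cd3e* at 0 in at least 1 mouse. The stromal and bone sum was 195 to 386 with letter A and 76.0 to 224 with letter B, and the myeloid sum 213 to 2035 and 161 to 426, with *Ms4a3* at 0 in at least 1 mouse. The part of these markers in the difference of *Cbfa2t3* was not tested.

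**Figure D5:**
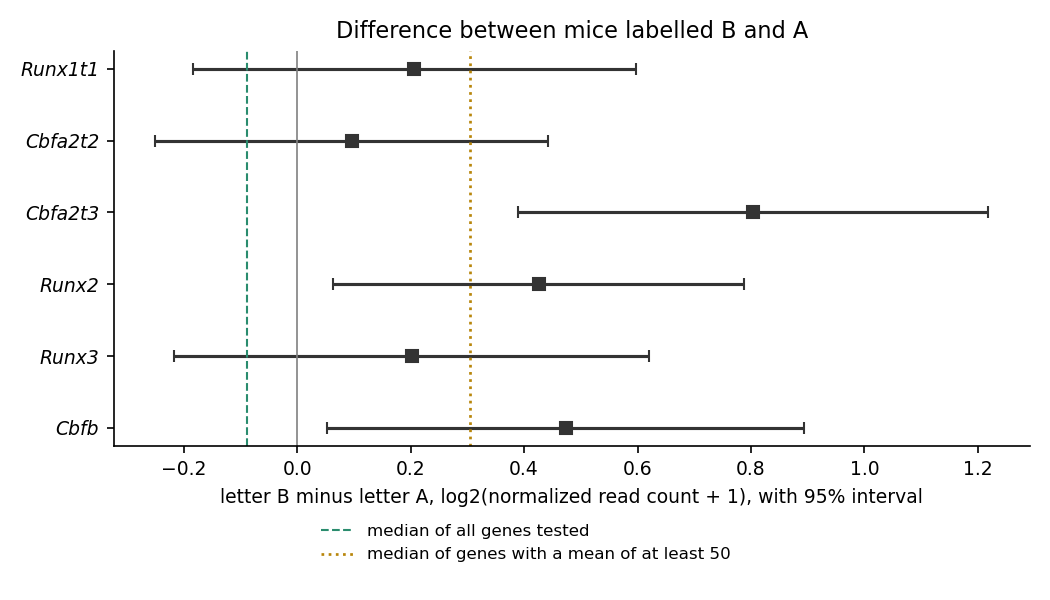
Difference between mice labelled B and A in log2(normalized read count + 1), adjusted for age, with 95% intervals; the dashed and dotted lines are the medians of all genes tested (-0.09) and of genes with a mean of at least 50 (0.30). *Cbfa2t3* at 0.80 is the gene whose interval lies above both lines.

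The genes that work with these proteins were described from lists chosen by function. ETO proteins act through TAL1 complexes, NCOR, SIN3 and histone deacetylases. Of 27 such genes, 26 had values and were tested, and limma called 0 between the ages in either fit (0.105% and 0.299% of all genes). With edgeR and DESeq2 0 were called as well, beside 18 and 57 of all 12354 genes. With limma 1 of the 26 had an unadjusted p under 0.05 (3.95% of all genes). Their median log2 difference was -0.17, with 8 above and 18 below 0. The 4 with the largest difference were *Gata1*, the erythroid factor (-0.76), *Bcl6*, a repressor of B cells and macrophages that recruits NCOR (0.74), *Ldb1*, the scaffold of the TAL1 complex (-0.45), and *Hdac1*, a deacetylase (-0.44). *Bcl6* had 29.9 ± 10.8 normalized read counts in young (SD, n = 5) and 48.9 ± 11.2 in old mice (SD, n = 7, limma adjusted p = 0.796).
By letter 13 of the 26 were higher in B and 0 lower as deposited (10.5% and 25.6% of all genes), 22 and 0 after rescaling (27.2% and 20.5%), and 10 and 0 of the 21 with a mean of at least 50 (17.3% and 2.35%). Among them were *Ldb1* (0.73, limma adjusted p = 0.00706) and *Hdac1* (1.16, limma adjusted p = 0.00367). The median difference of the list was 0.54, beside 0.30 for genes with a mean of at least 50.

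Of 25 RUNX cofactors, which include Groucho corepressors, acetyltransferases, methyltransferases and ETS factors that bind beside RUNX proteins, 22 were tested. Between the ages 0 were called by limma (0.105% of all genes) and 0 by edgeR or DESeq2 (18 and 57 of 12354 genes). With limma 2 of the 22 had an unadjusted p under 0.05 (3.95% of all genes). Their median was -0.11. The 4 largest were *Cebpa*, the granulocyte factor (0.87), *Stub1*, a ubiquitin ligase that removes RUNX proteins (-0.51), *Ets1* (0.44) and *Aes*, a short Groucho protein (-0.40). *Cebpa* was low, with 7.03 ± 5.18 normalized read counts in young (SD, n = 5) and 12.3 ± 6.07 in old mice (SD, n = 7). Its lowest young value was 1.18, and its difference had a standard error of 0.58. *Ets1* had 51.1 ± 12.9 in young (SD, n = 5) and 69.2 ± 13.2 in old mice (SD, n = 7, limma adjusted p = 0.9997), and *Stub1* 52.2 ± 7.96 and 37.6 ± 10.5. By letter, 12 of the 22 were higher in B and 0 lower as deposited (10.5% and 25.6% of all genes), 15 and 0 after rescaling (27.2% and 20.5%), and 7 and 0 of the 19 with a mean of at least 50 (17.3% and 2.35%).
Of 21 genes with known RUNX sites, 18 had values and 15 were tested. Between the ages 0 were called by limma (0.105% of all genes) and 0 by edgeR or DESeq2 (18 and 57 of 12354 genes). With limma 1 of the 15 had an unadjusted p under 0.05 (3.95% of all genes), and the median difference was 0.03. The 4 largest were *Pf4*, a platelet chemokine (-1.33), *Cebpa* (0.87), *Csf1r*, the macrophage receptor (0.53), and *Itgal*, a leukocyte integrin (0.46). *Pf4* had 41.0 ± 26.4 normalized read counts in young (SD, n = 5) and 14.6 ± 6.22 in old mice (SD, n = 7, limma adjusted p = 0.796). The young values ran from 13.5 to 79.0 and the old from 3.59 to 21.2. Over the list 9 differences were above and 6 below 0. By letter this list differed from the other 2 lists. As deposited 3 of the 15 were higher and 6 lower in B (10.5% and 25.6% of all genes), with a median of -0.91. Those lower in B, except *Mpo*, had a mean below 50, and calls lower in B were rarer among genes with a mean of at least 50 (2.35%). In the 6 mice of letter B alone, limma called 2 of the 15 (0.809% of all genes), both lower in old mice. These were *Pf4*, with 23.5 to 79.0 in young and 3.59 to 19.4 in old mice, and *Mpo*, the granule enzyme myeloperoxidase, with 22.2 to 106 and 2.92 to 39.98, which was named after its values were seen. With letter A *Mpo* lay the other way, at 39.5 and 54.3 in young and 67.6 to 651 in old mice, and its log2 difference over all mice was -0.05 (limma adjusted p = 0.9997).
Among markers of platelet-forming cells, 7 were tested. With limma 0 were called without a covariate, 3 of them had an unadjusted p under 0.05 (3.95% of all genes), and *Itgb3*, the platelet integrin beta3, was called with the letter as a covariate (log2 difference 1.09, limma adjusted p = 0.000958). The markers summed to 958 to 1313 normalized read counts in young and 753 to 2003 in old mice, none was at 0 in any mouse, and their part in the level of *Runx1t1* was not tested.

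After centring within each letter, the 5 tested genes whose log2 values over the 12 mice were most like those of *Runx1t1* were *Slc39a1*, a zinc transporter (r = 0.91), *Nhsl2* (0.90), *Tor4a* (0.89), *Crtap*, a collagen-modifying protein (0.88), and *Pigq*, an enzyme of GPI anchor synthesis (0.87). Because age was left in these values, the difference of *Runx1t1* between the ages is part of the likeness. Among the 6 genes themselves *Runx2*, *Cbfb* and *Cbfa2t3* had the highest correlations on this scale (r from 0.60 to 0.70, n = 12 mice), and *Runx1t1* with *Cbfa2t3* had 0.59, while *Cbfa2t2* was between -0.28 and 0.15 with the others. The mice share a library for all genes and differ in depth, and the 2 shallowest were low in *Runx2* and *Cbfa2t3* alike, so that these values are descriptions.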

How the data were processed

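RNA-seq was made from LSK-SLAM cells of 5 young and 7 old mice, with 2 labelled runs per mouse (24 samples, 12 mice), each mouse counted once. The authors deposited a signal per gene and mouse, reads divided by library size and a scaling factor; the processing notes name FastQC 0.11.8, STAR 2.5.4b, edgeR 3.24.3 and build mm10. The read counter, annotation and strand setting are not given in the sources used here. A deposited table of the authors' own comparison (fold changes and p-values) was not used. In each mouse 100% of values were whole multiples of the value of 1 read (tolerance 0.01), and recovered reads numbered 0.861 to 5.12 M (M, 1000000). Intervals of reads cover counting error only.

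Genes with a mean of at least 10 were fitted with limma 3.58.1 (R 4.3.3, trend) on log2(value + 1), a scale that understates changes of low genes, with Benjamini-Hochberg adjustment over all 12354 genes and calls at an adjusted p under 0.05. The letter and its interaction with age were terms of separate fits. Alternatives included edgeR 4.0.16 (18 genes called between the ages) and DESeq2 1.42.0 (57) on recovered reads. Procedures were tested on simulated data. The labels do not tie mice to separate experiments, so p-values measure the spread between these mice. The genes and lists were chosen with earlier results of these data known. Named were all 6 family genes, in each list the genes called between the ages or, where fewer than 4 were, those with the largest differences up to 4, and the 5 genes most like *Runx1t1*. Positions and lengths came from GENCODE vM21, promoters from RefSeq. *Itgb3* was named after its values were seen.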

Additional observations from a re-analysis of the deposited data

How the results depend on the processing

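Between the ages 13 genes were called, and leaving out 1 mouse in turn gave 3 (without young mouse 3 or 4 or old mouse 1, 2 or 3) to 32 (without old mouse 5). The count was 37 with the letter as a covariate, 2 without a variance trend, 1 in letter A alone, 100 in letter B alone, 5 after rescaling by median ratios, 43 with edgeR and the letter as a covariate, and 57 with DESeq2. After the data were seen, 49 were counted without the 2 shallowest mice, 118 so with the letter as a covariate, and 8 in replicates 1 to 5. Replicate numbers marked different animals whose deviations correlated between -0.56 and 0.61 (mean 0.14, over 0.1 in 3 of 5 pairs). Pairs with different numbers had a mean of -0.02 (over 0.1 in 11 of 30 pairs). With 5 pairs it cannot be decided whether mice of 1 number share more than the number. The replicate block over replicates 1 to 5 called 19 genes, gave *Runx1t1* 0.65, *Cbfa2t3* 0.14 and *Cbfa2t2* 0.00843, and called none of the 6. By letter 4462 genes were called, 943 with a minimum mean of 50 (4799 tested), 2288 without the 2 shallowest mice and 2943 to 5003 when 1 mouse was left out.

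The difference between the ages stayed above 0 for *Runx1t1* in 29 of 29 alternatives (0.53 to 0.76, adjusted p 0.0226 to 0.9998) and below 0 for *Runx2* and *Cbfb* in 29 and *Runx3* in 28. *Cbfa2t3* turned above 0 in 14: 0.13 with the letter as a covariate, 0.32 in letter B, 0.14 in replicates 1 to 5, 0.0625 with edgeR and with DESeq2, 0.15 with edgeR and the letter, 0.0135 in thinned reads, 0.33 without the 2 shallowest mice, and -0.16 to 0.14 when 1 mouse was left out. *Cbfa2t2* turned in 7: 0.0702 in letter A, 0.00843 in replicates 1 to 5, 0.0434 in thinned reads, and -0.0802 to 0.0519 when 1 mouse was left out. Its letter difference was -0.00501 in thinned reads, and the difference of the age effect of *Runx1t1* between letters was 0.0692 after rescaling. The cause of these turns was not tested. *Cbfb* and *Runx2* passed by letter in 4 of 18 alternatives each. Old mice 5 and 7 limit the values that rest on few reads, and a letter that runs with depth limits all comparisons across letters.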
